A study of Mus musculus with 6 samples.

Results

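The transforming growth factor beta (TGF-beta) genes described here are 10 in number: 3 ligand genes (Tgfb1, Tgfb2 and Tgfb3), 3 receptor genes (Tgfbr1, Tgfbr2 and Tgfbr3) and 4 latency protein genes (Ltbp1, Ltbp2, Ltbp3 and Ltbp4). They are 10 of the 21506 genes tested. Each was represented by the array row that the platform annotation assigns to that symbol alone, and each had exactly 1 such row. Total RNA from left ventricle of 6 male mice was measured on Affymetrix Mouse Gene 2.0 ST arrays, with 1 array per mouse. The 3 sickle mice were homozygous for Hbbtm2(HBG1,HBB*)Tow, an engineered locus carrying the human sickle beta-globin gene. The 3 control mice were homozygous for Hbbtm3(HBG1,HBB), its counterpart without the sickle change. Both groups also carried the human alpha-globin allele Hbatm1(HBA)Tow on a B6;129 background, so mouse adult globins were replaced in the controls too. Experiments in these lines were run at 10 to 14 weeks of age, per the labels. The sickle and control lines were obtained as separate stocks, and the labels do not say whether the mice were littermates. The labels do not say whether the hearts profiled were among those used for electrophysiology. The question was how gene expression in the sickle ventricle differs from that in the control ventricle.

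TGF-beta is secreted as an inactive complex. The mature growth factor stays wrapped in its own cleaved propeptide, and in most tissues that propeptide is bound by disulphide bonds to a latent TGF-beta binding protein, which anchors it to fibrillin and fibronectin in the matrix. Release by integrins, proteases or thrombospondin lets the ligand bind the type II receptor, which recruits and phosphorylates the type I receptor, and the type I receptor then phosphorylates SMAD proteins. In injured heart the pathway is best known for turning fibroblasts into matrix-producing myofibroblasts, and macrophages, platelets, fibroblasts and cardiomyocytes are all known sources of the ligands.

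Values are log2 expression levels, so a difference of 1 is 2-fold. They compare a gene between arrays and do not rank genes against each other. Sickle replicate 3 stood apart: its score on the first principal component (43.9% of the variance) was 43.3, against -15.1 to -2.31 for the other 5 arrays. The 10 genes are therefore given with all 6 arrays and again without that array, and for other genes and lists the value without it is added where it differs by over 1.5 times or turns in sign. The cardiomyocyte marker Myh6, alpha myosin, was measured at 13.16 to 13.28 on the 6 arrays. It was not picked by the rule for named genes given below. Over the 10 cardiomyocyte markers, sickle replicate 3 minus the mean of sickle replicates 1 and 2 ran from -0.66 to -0.059. In bulk tissue a change in the number of cells of a type and a change in RNA per cell cannot be told apart. Over all genes, 39 of 21506 (0.181%) passed an adjusted p of 0.05 with 6 arrays, and 21 (0.0976%) passed without sickle replicate 3.

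Of the 10 TGF-beta genes, 0 passed the adjustment in either fit (limma, adjusted p from 0.437 to 0.910 with 6 arrays and from 0.457 to 0.962 without sickle replicate 3), where 0.181% and 0.0976% of all genes did. An unadjusted p under 0.05 was reached by 2 of the 10 with 6 arrays (Tgfb1 and Ltbp4) and by 3 without sickle replicate 3 (Tgfb1, Tgfb2 and Ltbp4), against 8.69% and 9.2% of all genes. Tgfb1, Ltbp4 and Ltbp1 were higher in every sickle array than in any control array, by 1.33-fold, 1.41-fold and 1.09-fold. Of all genes, 7.61% were higher without overlap. Tgfb3, Ltbp2 and Ltbp3 were far above the other arrays in sickle replicate 3 and near control in sickle replicates 1 and 2. Tgfb2 lay below every control array in sickle replicates 1 and 2 and above every control array in sickle replicate 3.

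**Figure D1:**
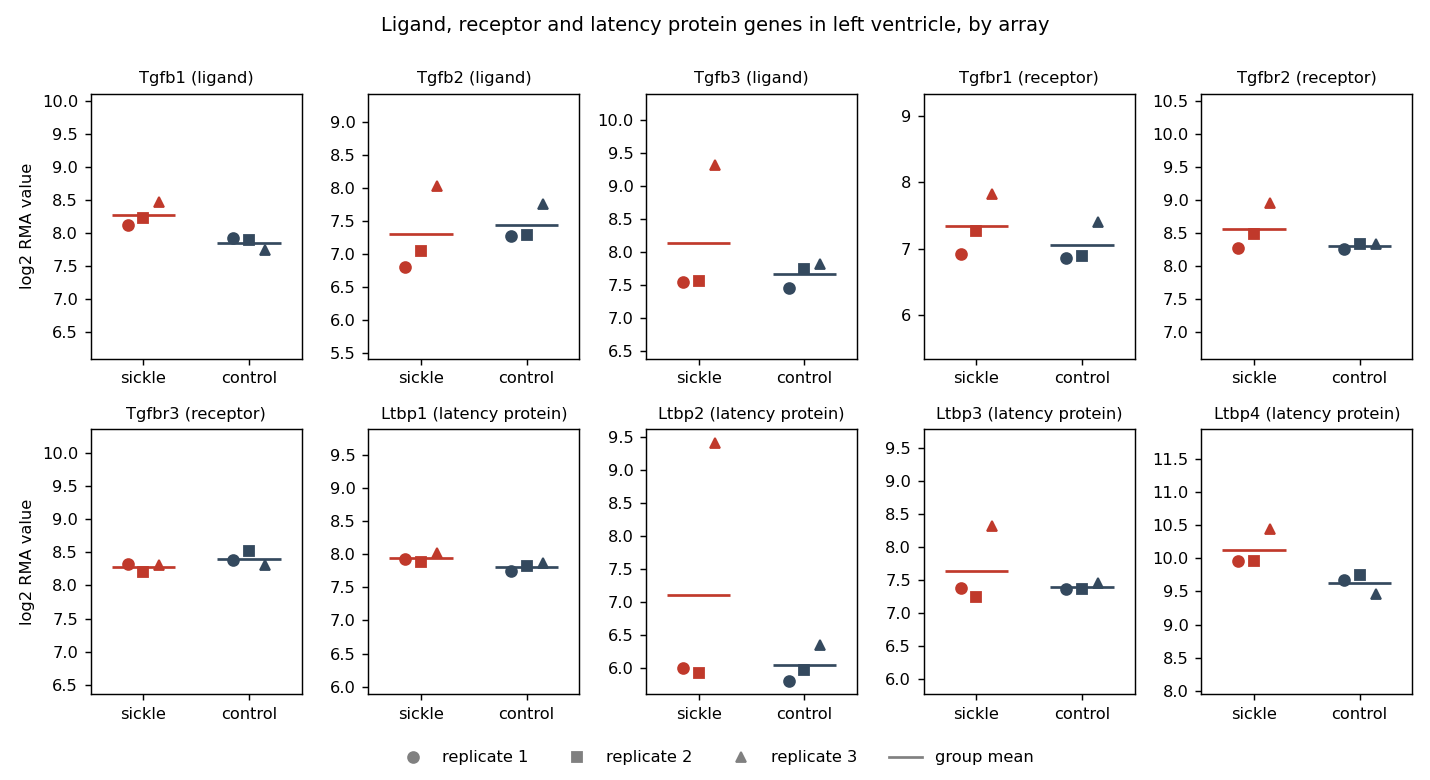
Log2 expression of the 10 genes on each array, sickle left and control right, with a line at each group mean and marker shapes for replicate numbers; every panel spans 4 log2 units. The sickle replicate 3 triangle is the highest point in 9 of the 10 panels, as for 23.9% of all genes. Tgfb1, Ltbp1 and Ltbp4 are higher in sickle without overlap between groups, as are 7.61% of all genes.

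Among the ligands, Tgfb1 encodes the isoform made by most inflammatory and stromal cells and stored in platelets. Its level was 8.12, 8.23 and 8.47 in sickle replicates 1, 2 and 3, against 7.93, 7.90 and 7.74 in control replicates 1, 2 and 3. The groups did not overlap, and sickle replicates 1 and 2 lay above control as sickle replicate 3 did. The means were 8.27 ± 0.18 in sickle and 7.86 ± 0.10 in control (SD, n = 3 each). The difference of 0.41 ± 0.12 (SE; 95% interval 0.14 to 0.69) did not pass the adjustment (adjusted p = 0.437). Without sickle replicate 3 it was 0.32 ± 0.10 (0.069 to 0.57, adjusted p = 0.457).

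Tgfb2, whose product is the isoform most tied to cardiac cushion development and valve formation, had levels of 6.81, 7.05 and 8.04 in sickle replicates 1, 2 and 3, against 7.28, 7.29 and 7.75 in control. Sickle replicates 1 and 2 were the lowest of the 6 arrays, and sickle replicate 3 was the highest. With 6 arrays the difference was -0.14 ± 0.31 (-0.85 to 0.57, adjusted p = 0.910). Without that highest array the groups did not overlap and the difference was -0.51 ± 0.17 (-0.92 to -0.10, adjusted p = 0.463). The sign of the Tgfb2 difference rested on single arrays: it was 0.10 without sickle replicate 1, -0.019 without sickle replicate 2 and 0.015 without control replicate 3.

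Tgfb3, an isoform known for palate and lung development and for its expression in fibroblasts, had 7.54, 7.56 and 9.32 in sickle replicates 1, 2 and 3, against 7.46, 7.74 and 7.82 in control. Sickle replicates 1 and 2 fell inside the control range, and sickle replicate 3 was 1.77 above the mean of those 2 arrays. The difference was 0.47 ± 0.44 (-0.56 to 1.496, adjusted p = 0.776) with 6 arrays and -0.12 ± 0.13 (-0.43 to 0.18, adjusted p = 0.802) without that array, so its sign turned.

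The upstream sequences of Tgfb1 and Tgfb2 are shown because these ligands lay on opposite sides of control in sickle replicates 1 and 2. The RefSeq promoter table (GRCm38.p6) held windows for 8 of the 10 genes, 12 windows in all, and the 250 bases before each start were searched. Capitals mark the TATA box (TATAAA, sense strand), the GC box bound by Sp1-type factors (GGGCGG, both strands), the CCAAT box (CCAAT, both strands), the AP-1 site (TGANTCA, both strands) and the CAGA box known to be bound by SMADs (CAGACA, both strands). Overlapping matches were each counted.
Tgfb1, chr7:25686752-25687001, plus strand: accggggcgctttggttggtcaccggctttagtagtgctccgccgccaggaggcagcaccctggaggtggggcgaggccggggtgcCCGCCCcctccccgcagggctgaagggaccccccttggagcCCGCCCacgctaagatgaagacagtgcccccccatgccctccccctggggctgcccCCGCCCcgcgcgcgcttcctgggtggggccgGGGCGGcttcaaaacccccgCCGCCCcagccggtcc
Tgfb2, chr1:186705990-186706239, minus strand: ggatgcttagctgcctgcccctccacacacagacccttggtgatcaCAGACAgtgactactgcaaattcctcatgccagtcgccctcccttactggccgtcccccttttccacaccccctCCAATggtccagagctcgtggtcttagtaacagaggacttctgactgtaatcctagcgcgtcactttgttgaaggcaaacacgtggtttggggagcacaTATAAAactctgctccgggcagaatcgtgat

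The Tgfb1 window held 5 GC boxes and no match to the other 4 motifs, while the Tgfb2 window held 1 TATA box beginning 31 bases before the start, 1 CCAAT box and 1 CAGA box. Of 32851 windows in the table, 7.59% held a TATA box, 32.7% a GC box, 33.8% a CCAAT box, 6.75% an AP-1 site and 17.1% a CAGA box. The GC content was 75.2% for Tgfb1 and 53.6% for Tgfb2, against a median of 52.4% over all windows. These matches describe the letters of the windows.

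The differences of the 3 receptor genes lay between -0.13 and 0.29. Tgfbr2 encodes the type II kinase that binds the ligand first, and its levels were 8.26, 8.48 and 8.94 in sickle replicates 1, 2 and 3, against 8.25, 8.33 and 8.33 in control. Sickle replicate 1 lay within the control range, so the groups overlapped. The difference was 0.26 ± 0.17 (-0.13 to 0.65, adjusted p = 0.678), and 0.070 ± 0.10 (-0.18 to 0.32, adjusted p = 0.876) without sickle replicate 3.

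Tgfbr1, the type I kinase also called ALK5, had 6.92, 7.27 and 7.82 in sickle replicates 1, 2 and 3, against 6.86, 6.88 and 7.41 in control. Replicate 3 was the highest array of each group, and sickle replicates 1 and 2 lay within the control range. The difference was 0.29 ± 0.24 (-0.28 to 0.85, adjusted p = 0.749), against 0.046 ± 0.20 (-0.42 to 0.51, adjusted p = 0.962) without sickle replicate 3.

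Tgfbr3, or betaglycan, is a co-receptor without kinase activity that presents ligand, above all the product of Tgfb2, to the type II receptor. It was the 1 gene of the 10 that was not highest in sickle replicate 3. Its levels were 8.33, 8.20 and 8.31 in sickle replicates 1, 2 and 3, against 8.39, 8.52 and 8.31 in control. The lowest control array lay between the sickle arrays, and the difference was -0.13 ± 0.099 (-0.36 to 0.10, adjusted p = 0.725). With sickle replicate 3 left out it was -0.14 ± 0.11 (-0.40 to 0.11, adjusted p = 0.726).

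Among the latency proteins, Ltbp4 encodes a binding protein with a known part in elastic fibre assembly. Its levels were 9.95, 9.96 and 10.44 in sickle replicates 1, 2 and 3, against 9.68, 9.75 and 9.46 in control. All 3 sickle arrays lay above all 3 control arrays. The means were 10.12 ± 0.28 in sickle and 9.63 ± 0.15 in control (SD, n = 3 each). The difference of 0.49 ± 0.16 (0.13 to 0.86) did not pass the adjustment (adjusted p = 0.485), and without sickle replicate 3 it was 0.33 ± 0.11 (0.057 to 0.60, adjusted p = 0.470).

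Ltbp2 encodes the family member that does not bind latent TGF-beta and that associates with fibrillin microfibrils. Its levels were 5.996, 5.93 and 9.41 in sickle replicates 1, 2 and 3, against 5.81, 5.97 and 6.35 in control. Sickle replicates 1 and 2 fell inside the control range, while sickle replicate 3 was 3.45 above their mean, the widest such gap of the 10 genes. The difference of 1.07 ± 0.84 (-0.90 to 3.03, adjusted p = 0.729) became -0.081 ± 0.16 (-0.47 to 0.31, adjusted p = 0.912) without that array.

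Ltbp3, a binding protein known for its part in bone growth and aortic disease, had 7.37, 7.24 and 8.31 in sickle replicates 1, 2 and 3, against 7.36, 7.36 and 7.46 in control. Sickle replicate 3 was again the array above all others. The difference was 0.25 ± 0.26 (-0.35 to 0.85, adjusted p = 0.792), and -0.083 ± 0.096 (-0.31 to 0.15, adjusted p = 0.827) without it.

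Ltbp1, which carries the product of Tgfb1 in many tissues, had 7.92, 7.88 and 8.03 in sickle replicates 1, 2 and 3, against 7.75, 7.83 and 7.87 in control. The groups did not overlap, but the lowest sickle and the highest control array were close together. The difference was 0.13 ± 0.092 (-0.087 to 0.34, adjusted p = 0.707), and 0.085 ± 0.091 (-0.13 to 0.30, adjusted p = 0.810) without sickle replicate 3.

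**Figure D2:**
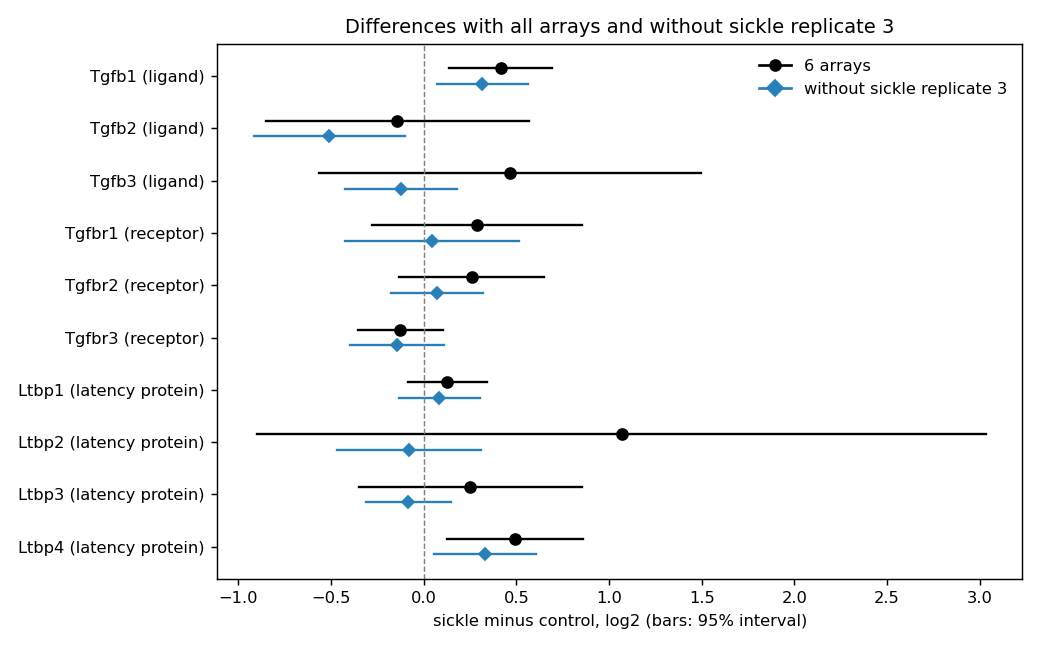
Sickle minus control on the log2 scale for each gene, as points with 95% intervals from limma, with all 6 arrays (black circles) and without sickle replicate 3 (blue diamonds). The estimates of Tgfb3, Ltbp2 and Ltbp3 lie above 0 with 6 arrays and below 0 without that array, and those of Tgfb1 and Ltbp4 stay above 0 in both fits.

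The windows of Ltbp4 and Ltbp2 are shown. Ltbp4 had the larger difference of the 2 latency proteins that were higher in all sickle arrays, the other being Ltbp1. Ltbp2 had the widest gap in sickle replicate 3. Ltbp4 had 3 windows in the table and Ltbp2 had 1, and the first Ltbp4 window is printed with the same motifs in capitals.
Ltbp4, chr7:27337613-27337862, minus strand: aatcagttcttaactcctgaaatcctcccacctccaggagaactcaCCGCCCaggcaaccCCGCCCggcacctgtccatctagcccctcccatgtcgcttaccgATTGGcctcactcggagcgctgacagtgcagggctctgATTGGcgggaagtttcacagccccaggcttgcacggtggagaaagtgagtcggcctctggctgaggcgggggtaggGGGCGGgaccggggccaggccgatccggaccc
Ltbp2, chr12:84876492-84876741, minus strand: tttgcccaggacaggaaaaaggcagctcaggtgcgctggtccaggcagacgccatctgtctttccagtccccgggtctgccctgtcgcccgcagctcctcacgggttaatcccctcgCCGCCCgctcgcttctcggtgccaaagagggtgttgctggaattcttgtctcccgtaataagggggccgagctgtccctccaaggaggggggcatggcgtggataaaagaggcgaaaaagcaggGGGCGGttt

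This Ltbp4 window held 3 GC boxes and 2 CCAAT boxes, and the Ltbp2 window held 2 GC boxes and no other motif searched. The other windows of Ltbp4 held 5 and 7 GC boxes. They overlap over most of their length, and the 5 boxes are among the 7. Tgfb2 was the 1 gene of the 8 with a TATA box, and no window of the 8 genes held an AP-1 site. Tgfb1 and Ltbp4 both lie on chromosome 7, with 29 protein-coding genes between them in RefSeq (GRCm38.p6). Of the 26 tested genes among those 29, 2 (7.69%) were higher in sickle without overlap, against 7.61% of all genes. The beta-globin locus engineered in both groups is on the same chromosome, with 883 protein-coding genes between Tgfb1 and Hbb-bt.

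Over the 10 genes, 8 differences were above 0 and 2 below with 6 arrays, with a median of 0.27, against a median of -0.0067 over all genes. Without sickle replicate 3, 5 were above and 5 below, with a median of -0.017, against 0.00072 over all genes. With 6 arrays 3 of the 10 were higher without overlap, where 7.61% of all genes were, and 0 were lower without overlap, where 8.36% of all genes were. Without sickle replicate 3, 3 were higher and 1 was lower without overlap, against 13.5% and 13.4% of all genes.

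Sickle replicate 3 was the highest of the 6 arrays for 9 of the 10 genes, and for 23.9% of all genes. It exceeded the mean of sickle replicates 1 and 2 by more than 0.5 for 6 of the 10 (Tgfb2, Tgfb3, Tgfbr1, Tgfbr2, Ltbp2 and Ltbp3), and for 7.09% of all genes. That excess ranged from 0.048 for Tgfbr3 to 3.45 for Ltbp2, with a median of 0.65, against -0.023 over all genes.

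**Figure D3:**
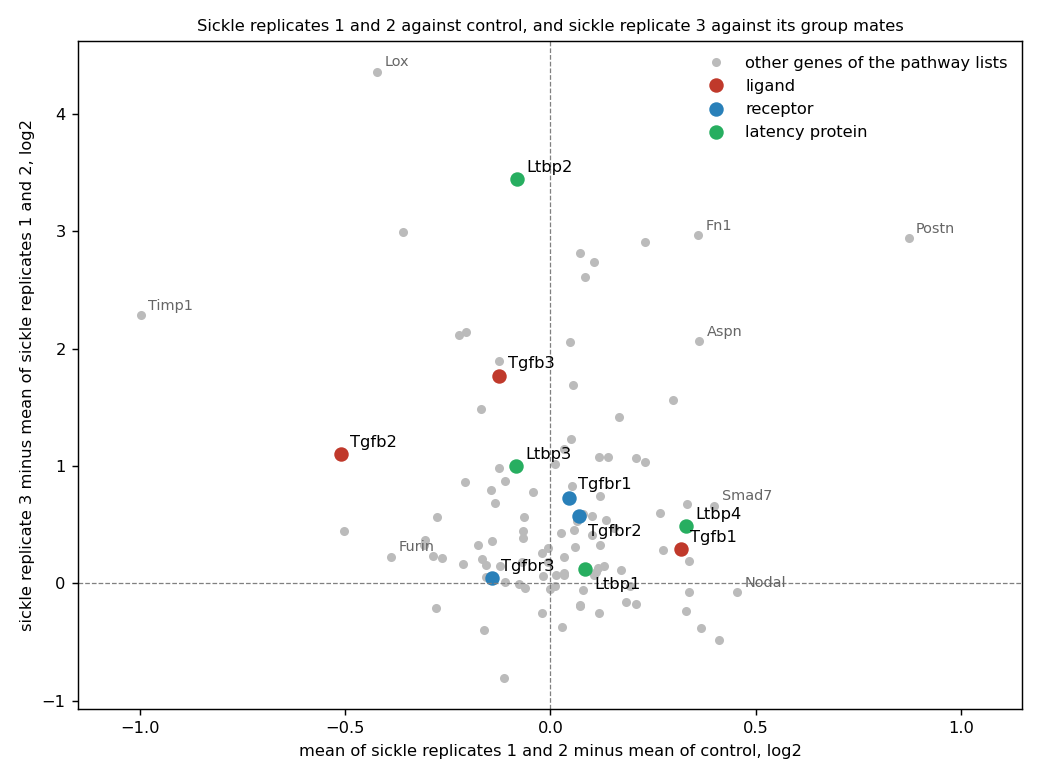
Each point is a gene: the horizontal axis is the mean of sickle replicates 1 and 2 minus the control mean, and the vertical axis is sickle replicate 3 minus the mean of sickle replicates 1 and 2, both log2. Tgfb1 and Ltbp4 sit to the right of 0 (0.32 and 0.33), with vertical values of 0.29 and 0.49. Ltbp2 and Tgfb3 sit near 0 on the horizontal axis and high above it, and Tgfb2 sits left and high. Grey labels mark pathway genes, of which Lox, Fn1 and Timp1 were chosen after their values were seen.

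Likeness between genes was measured as the root mean square difference of log2 values over the 6 arrays, each gene centred on its own mean, so that smaller values are closer. The closest pair among the 10 was Tgfb1 and Ltbp4, at 0.090. This measure counts the size of the differences between arrays as well as their pattern. Ltbp2 was closest to Tgfb3, at 0.64. Both were highest in sickle replicate 3, which was 3.45 above the mean of sickle replicates 1 and 2 for Ltbp2 and 1.77 for Tgfb3. Among other genes of the pathway, Tgfb1 was closest to Acta2 (smooth muscle actin, 0.10), Eng (the co-receptor endoglin, 0.12) and Itgav (the alpha V integrin chain, 0.12). Tgfb3 was closest to Ccn2 (connective tissue growth factor, 0.085), Mmp14 (a membrane-bound metalloproteinase, 0.11) and Fbn2 (fibrillin 2, 0.13). Tgfb2 was closest to Itgb8 (the beta 8 integrin chain, 0.18), Smad1 (a SMAD of the BMP branch, 0.21) and Fstl3 (a follistatin-like antagonist, 0.22). These values describe 6 arrays and carry no test.

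The rest of the pathway was read from 6 lists holding 102 tested genes besides the 10. None passed the adjustment in either fit (limma adjusted p of at least 0.325 with 6 arrays and 0.140 without sickle replicate 3), while 11 (10.8%) had an unadjusted p under 0.05 with 6 arrays and 16 (15.7%) without that array, against 8.69% and 9.2% of all genes. With 6 arrays 77 were above control and 25 below, with a median difference of 0.17. Without sickle replicate 3, 59 were above and 43 below, with a median of 0.034.

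SMADs and their nuclear partners were 13 of 16 above control and 3 below, with a median of 0.062. Smad7, the inhibitory SMAD that TGF-beta induces as its own brake, had 7.63, 7.60 and 8.28 in sickle replicates 1, 2 and 3, against 7.15, 7.22 and 7.28 in control. All sickle arrays lay above all control arrays, and the difference was 0.62 ± 0.18 (adjusted p = 0.441; 0.40 without sickle replicate 3, adjusted p = 0.303). Smad6, the inhibitory SMAD of the BMP branch, differed by 0.56 ± 0.22 (0.33 without sickle replicate 3, with overlap in both fits), and Smurf2, a ubiquitin ligase that removes the receptors, by 0.18 ± 0.096. The receptor-activated Smad2 and Smad3 and the shared Smad4, named here after their values were seen, differed by 0.038, 0.061 and -0.0097 (0.013, 0.079 and -0.070 without sickle replicate 3).

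Activators and matrix anchors of the latent complex were 16 of 20 above control and 4 below, with a median of 0.28 that was 0.050 without sickle replicate 3. Furin, the protease that cleaves the propeptide from the ligand, had 8.98, 8.94 and 9.19 in sickle replicates 1, 2 and 3, against 9.31, 9.39 and 9.34 in control. All sickle arrays lay below all control arrays, with a difference of -0.31 ± 0.10 (adjusted p = 0.487; -0.39 without sickle replicate 3, adjusted p = 0.303). Lrrc32, also called GARP, which holds latent TGF-beta on cell surfaces, had 7.81, 7.95 and 8.48 in sickle replicates 1, 2 and 3, against 7.57, 7.65 and 7.63 in control. Its difference was 0.47 ± 0.17, and 0.27 without sickle replicate 3. Itgav, a chain of the integrins that release the ligand, differed by 0.32 ± 0.17, and by 0.14 without sickle replicate 3. Fbn1 was not among the genes tested.

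Binding proteins and co-receptors were 12 of 15 above control and 3 below, with a median of 0.22. Without sickle replicate 3, 9 were above and 6 below, with a median of 0.12. Eng, the endothelial co-receptor endoglin, had 11.13, 10.95 and 11.23 in sickle replicates 1, 2 and 3, against 10.68, 10.88 and 10.54 in control. The groups did not overlap, and the difference was 0.40 ± 0.13 (adjusted p = 0.473; 0.34 without sickle replicate 3). Tgfb1i1, the focal adhesion protein Hic-5, differed by 0.31 ± 0.14, and by 0.16 without sickle replicate 3. Aspn, the matrix proteoglycan asporin that binds TGF-beta, differed by 1.05 ± 0.51, and by 0.36 without sickle replicate 3.

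Other receptors of the superfamily were 7 of 10 above control and 3 below, with a median of 0.095 that was -0.0037 without sickle replicate 3. Acvr1c, the type I receptor ALK7, differed by 0.31 ± 0.11, Acvr2b, an activin type II receptor, by -0.29 ± 0.16 (-0.16 without sickle replicate 3), and Bmpr1b, a BMP type I receptor, by 0.15 ± 0.098. Other ligands and antagonists were 11 of 21 above control and 10 below, with a median of 0.058 that was -0.067 without sickle replicate 3. Nodal, a ligand of early embryonic patterning, differed by 0.43 ± 0.099 (adjusted p = 0.325), Mstn, the muscle growth inhibitor myostatin, by -0.35 ± 0.15, and Bmp10, a ligand made mainly in atrium, by -0.35 ± 0.15. None of these 6 genes passed the adjustment. All but Acvr2b were dim, below the median of every array (5.50 to 5.54). Over the 6 arrays Mstn ran from 2.84 to 3.53, Bmpr1b from 3.38 to 3.67 and Acvr1c from 3.84 to 4.40. Bmp10 ran from 4.57 to 5.33 and Nodal from 4.79 to 5.42.

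Textbook target genes of TGF-beta were 23 of 25 above control and 2 below, with a median of 0.50. Ltbp2 is on this list as well as among the 10. The lists share other genes, so they are not independent of each other. Of the targets, Col1a1, Col1a2 and Col3a1 are also on the fibroblast list, and Acta2 and Tagln on the smooth muscle list. Fn1 is also among the activators, Smad7 and Skil among the SMADs, and Pmepa1 among the binding proteins. Dcn is on both the binding protein and the fibroblast lists. Over the list, the median of the log2 value minus the control mean came to 0.090 in sickle replicate 1, 0.035 in sickle replicate 2 and 1.29 in sickle replicate 3, against -0.15, -0.045 and 0.16 in control replicates 1, 2 and 3. Sickle replicates 1 and 2 lay within the control range, and sickle replicate 3 was the highest of the 6 arrays for 25 of the 25 genes. Without that array 16 were above control and 9 below, with a median of 0.085 (0 called; adjusted p of at least 0.140). Postn, the matricellular protein periostin of activated fibroblasts, had 9.28, 9.64 and 12.40 in sickle replicates 1, 2 and 3, against 8.25, 8.49 and 9.02 in control, and so lay above control in each sickle array. Acta2, smooth muscle actin, had 10.65, 10.76 and 10.99 in sickle, against 10.31, 10.55 and 10.44 in control, also without overlap. Timp1, a metalloproteinase inhibitor, was chosen after its values were seen. It had 5.79, 5.60 and 7.98 in sickle replicates 1, 2 and 3, against 6.49, 6.61 and 6.97 in control. As for Tgfb2, sickle replicates 1 and 2 lay below every control array and sickle replicate 3 above every one. Lox, Tnc and Snai2 of this list were placed likewise. Without sickle replicate 3, 4 of the 25 were lower without overlap and 5 were higher, against 13.4% and 13.5% of all genes.

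Markers of several cell types moved with sickle replicate 3. The 10 fibroblast markers averaged 9.27 to 10.7 on the log2 scale in sickle and 9.17 to 9.31 in control, and 9 of 10 differences were above 0 (5 of 10 without sickle replicate 3). Measured from the control mean, the fibroblast median stood at 0.0082 in sickle replicate 1, 0.083 in sickle replicate 2 and 1.26 in sickle replicate 3. The 10 macrophage and monocyte markers averaged 7.41 to 8.73 in sickle and 7.38 to 7.60 in control, with 9 of 10 above 0 and medians of -0.013, 0.13 and 1.33 on those arrays. Cardiomyocyte markers went the other way: their average of 12.24 in sickle replicate 3 was the lowest of the 6 arrays, and 10 of 10 lay below the mean of sickle replicates 1 and 2 there. In the fibroblast and macrophage lists the medians of sickle replicates 1 and 2 were at most 0.13 from control, and for the 10 TGF-beta genes these medians were -0.044, -0.026 and 0.70. The part of these cell types in the levels of Tgfb2, Tgfb3, Ltbp2 and Ltbp3 was not tested.

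**Figure D4:**
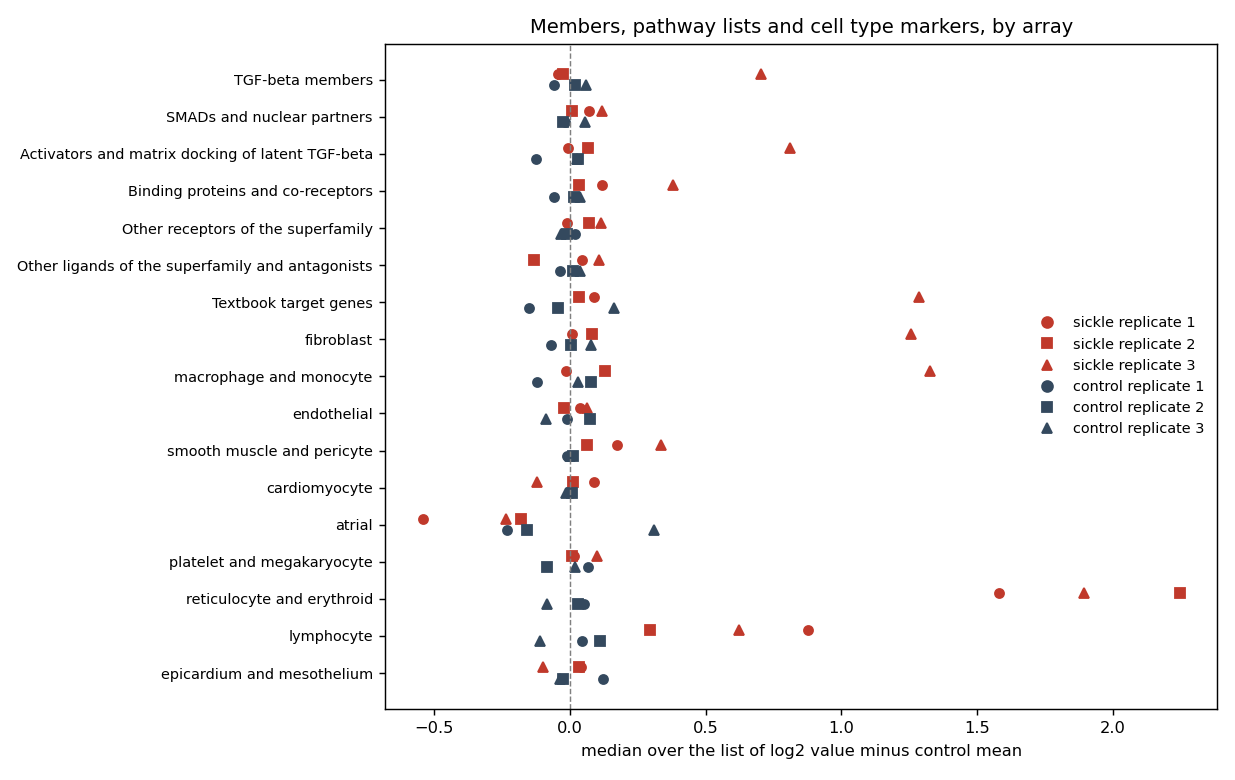
For each list, the median over its genes of the log2 value minus the control mean, per array, with sickle in red above control in dark grey and marker shapes for replicate numbers. Some lists share genes. Sickle replicate 3 stands to the right for the 10 TGF-beta genes (0.70), activators, textbook targets, fibroblast and macrophage markers, while all 3 sickle arrays stand right for the red-cell list.

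Lum, the fibroblast proteoglycan lumican, differed by 0.79 ± 0.28 (0.42 without sickle replicate 3), and Gsn, gelsolin, by -0.18 ± 0.089. The macrophage genes Csf1r, the receptor for macrophage colony-stimulating factor, and Lyz2, lysozyme, differed by 0.63 ± 0.25 and 0.71 ± 0.30, and by 0.31 and 0.32 without sickle replicate 3. None of the 20 fibroblast and macrophage markers passed the adjustment. Over the macrophage list without sickle replicate 3, 7 of 10 were above control and 3 below, with a median of 0.046 and a range from -0.63 for Cd14, an endotoxin co-receptor named after its values were seen, to 0.32 for Lyz2.

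Other markers lay beside the higher Tgfb1 and Ltbp4 of all 3 sickle arrays. The 8 smooth muscle and pericyte markers averaged 8.79 to 9.04 in sickle and 8.66 to 8.74 in control, with 8 of 8 differences above 0 (median 0.23, and 0.10 without sickle replicate 3; Myh11, smooth muscle myosin, 0.28 ± 0.091). The 8 reticulocyte and erythroid markers averaged 8.34 to 9.03 in sickle and 6.66 to 6.84 in control. After adjustment 7 of 8 rose, where 0.181% of all genes were called in either direction. Among them were Bpgm, which makes the red-cell metabolite bisphosphoglycerate (1.71 ± 0.12, limma adjusted p = 0.00491), and Isg20, an exonuclease (2.00 ± 0.18, adjusted p = 0.0109). The list was chosen with earlier results of these data known, so its count describes the list and tests nothing. The 7 lymphocyte markers averaged 5.11 to 5.50 in sickle and 4.60 to 4.83 in control. With 6 arrays 1 of the 7 was called, against the same 0.181% of all genes. It was the B-cell receptor gene Cd79a (1.12 ± 0.15, limma adjusted p = 0.0484), while Ms4a1, CD20, had 0.69 ± 0.12. Without sickle replicate 3, 4 of the 8 erythroid markers and 0 of the 7 lymphocyte markers were called, where 0.0976% of all genes were. An unadjusted limma p under 0.05 was reached with 6 arrays by 6 of these 7 lymphocyte markers, against 8.69% of all genes. Without sickle replicate 3 it was reached by 4 of the 7, against 9.2% of all genes. Cd79a had a limma adjusted p of 0.0600 in that fit. The part of these cells in the Tgfb1 and Ltbp4 levels was not tested.

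Platelets store TGF-beta, and the 6 platelet markers averaged 5.66 to 5.82 in sickle and 5.52 to 5.71 in control, with 3 of 6 above 0 (Ppbp, a platelet chemokine, 0.61 ± 0.23; Pf4, platelet factor, 0.13 ± 0.17; 0.38 and -0.020 without sickle replicate 3). The 9 endothelial markers averaged 9.69 to 9.79 in sickle and 9.61 to 9.76 in control, with 6 of 9 above 0 (Fabp4, a fatty acid binding protein, -0.19 ± 0.091; Kdr, a VEGF receptor, 0.23 ± 0.11). The 10 cardiomyocyte markers averaged 12.2 to 12.5 in sickle and 12.4 in each control array, with 4 of 10 above 0, and 7 of 10 without sickle replicate 3 (Tnni3, cardiac troponin I, -0.11 ± 0.096; Actn2, alpha-actinin, -0.082 ± 0.088; -0.050 and -0.053 without that array). The 5 epicardial markers averaged 5.21 to 5.28 in sickle and 5.03 to 5.38 in control, with 2 of 5 above 0, and 4 of 5 without sickle replicate 3 (Wt1, an epicardial transcription factor, 0.50 ± 0.13; Upk3b, a uroplakin of mesothelium, -0.21 ± 0.22). The ranges of these averages overlapped between sickle and control in each of these 4 lists.

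Control replicate 3 stood apart in 2 atrial genes, chosen after their values were seen. Sln, sarcolipin, was 8.08 there and 3.10 to 3.36 on the other 5 arrays. Myl7, the atrial myosin light chain, was 7.75 there and 4.31 to 4.78 on the others. That array had the highest control value for 4 of the 6 atrial markers. Myl4 was 5.93 there against 5.12 and 5.02 in control replicates 1 and 2, and Nppa 12.74 against 12.63 and 12.72. Bmp10 (5.01) and Myl1 (7.94) were lower there than in control replicate 2 (5.33 and 8.34). Of 6 atrial markers 2 were above 0 (Nppa, atrial natriuretic peptide, 0.57 ± 0.17, and 0.37 without sickle replicate 3). Among the TGF-beta genes, 7 of 10 had their highest control value on that array (all but Tgfb1, Tgfbr3 and Ltbp4), as did 33.2% of all genes. Without control replicate 3 the difference was 0.47 for Tgfbr1 and, as above, 0.015 for Tgfb2. Tgfb1 and Ltbp4 had their lowest control value on that array. Without it their differences were 0.36 and 0.41, against 0.41 and 0.49 with 6 arrays. Their unadjusted limma p was then 0.037 and 0.056, against 0.0092 and 0.015 with 6 arrays. The part of atrial tissue in those levels was not tested.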

How the data were processed

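The authors deposited 1 table of log2 values, 25293 rows by 6 arrays, made with RMA (background correction, quantile normalisation and summary of probes), per the submitters' processing notes. Its scale was inferred from the range of the values; for RMA's version and settings, scan dates and batches, the sources used here give none. Platform annotation gave exactly 1 symbol to 22030 rows, and the brightest row stood for each of 21506 genes. Limma 3.58.1 in R 4.3.3 (lmFit, eBayes) was fitted on all genes with group as the only term (degrees of freedom 4 residual, 3.61 prior). Its two-sided p-values were adjusted by Benjamini and Hochberg's method across the 21506 genes, and 0.05 was the threshold. Each difference is the sickle mean less the control mean, with a moderated standard error and 95% interval, and no filter was set. The labels name 3 mice per group, whose number limits the precision. The procedure was tested on simulated data.

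The genes, lists and tests were chosen with earlier results of these data known. Named genes were the 10, the 3 of each pathway list and the 2 of each marker list with the smallest p, and the closest genes by profile. Same-numbered arrays had correlations of deviations from group means of 0.11, -0.046 and 0.054 across 21506 genes, and no label pairs them. The alternatives tried were a variance trend, a filter on dim genes, another normalisation, centring, array weights, a replicate block, leaving out each array, averaging rows, and no shared variance.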

Additional observations from a re-analysis of the deposited data

How the results depend on the processing

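No TGF-beta gene was called under any of the 14 alternatives tried, of limma or of ordinary least squares, where 1 to 3 of the 10 had an unadjusted p under 0.05. The differences of Tgfb1 and Ltbp4 stayed above 0 in all 14 (0.32 to 0.49 and 0.33 to 0.58; adjusted p 0.301 to 0.781 and 0.348 to 0.779), as did Tgfbr1, Tgfbr2 and Ltbp1, and Tgfbr3 stayed below 0. With 1 array left out, Tgfb2 ranged from -0.51 to 0.10, turning above 0 without sickle replicate 1 (0.10) and without control replicate 3 (0.015). Over the same fits Tgfb3 ranged from -0.12 to 0.76, Ltbp2 from -0.081 to 1.66 and Ltbp3 from -0.083 to 0.45, each below 0 without sickle replicate 3 alone. Array weights kept every sign among the 10 but gave -0.36 for Tgfb2, 0.11 for Tgfb3, 0.14 for Tgfbr1, 0.13 for Tgfbr2, 0.38 for Ltbp2 and 0.057 for Ltbp3, with medians of 0.12 for the 10 (0.27 with equal weights), 0.14 for activators (0.28), 0.14 for binding proteins (0.22) and 0.18 for textbook targets (0.50). The count over all genes, 39, was 4 to 36 with 1 array left out (4 without control replicate 3, 5 without control replicate 2), 12 with the replicate block and 0 by ordinary least squares (1740 at an unadjusted p under 0.05). The replicate block changed no call among the 10. The median of other superfamily receptors, 0.095, was 0.037 with the dim filter, 0.017 with array weights and -0.0037 to 0.14 with 1 array left out, and that of other ligands, 0.058, was -0.032 with array weights and -0.067 to 0.068 with 1 array left out. The fits that left out an array hold fewer arrays, and the dim filter fewer genes; the cause was not tested.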
